A study of Mus musculus with 2 samples.

Results

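Superoxide dismutases, catalase, glutathione peroxidases and peroxiredoxins are enzymes that remove superoxide and peroxides. Their transcripts were described in mouse hearts through a list of 10 genes: Sod1, Sod2, Sod3, Cat, Gpx1, Gpx3, Gpx4, Prdx3, Prdx5 and Prdx6. A gene was measured where the platform annotation gave its symbol to a probe, and 8 of the 10 were, each by 1 probe, out of 16390 genes in all. Sod3 and Gpx4 were matched to no probe by symbol or synonym and were not analysed here. Of the 8, 7 were detected in all 4 hearts, as were 11698 genes, and Gpx1 was detected in 1 heart. In the gene table Prdx5 and Prdx6 each carry the other's symbol as an old synonym, so these names are taken as the platform gives them.

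The hearts came from male mice on the C57BL/6J background, 6 months old, that had been fed freely (ad libitum, AL) or restricted in calories by 40% (CR) for 3 months. Control mice were compared with mice lacking the deacetylase Sirt1 in cardiomyocytes. The study was laid out to compare the response to restriction with and without Sirt1 in heart muscle cells. Each of 2 two-colour arrays held 1 AL heart labelled with Cy5 and 1 CR heart of the same genotype labelled with Cy3, 4 hearts of different mice in all. With 1 heart per condition there is no replicate check, no test and no p-value, and every value below describes these hearts. Diet and dye cannot be told apart, because the dyes were not swapped, and genotype and array cannot be told apart either. In the knockout hearts the other heart cells keep Sirt1, and which promoter drove the deletion is not given in the labels. The Sirt1 probe read 7.11 and 7.53 on the log2 scale in the control AL and CR hearts and 7.07 and 7.51 in the knockout AL and CR hearts. Its position relative to the deleted part was not known here, so it does not check the genotype.

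Between 74.0% and 80.7% of probes were detected in each heart, with 2 SD above the blank spots' mean as the limit of detection. All 9 cardiomyocyte markers with a probe were detected in every heart. Replicate spots of the positive controls had SDs of 0.048 to 0.088 in log2 ratio, which describes spot noise and not the spread between mice. Because whole hearts were used, fewer cells of a type and less RNA per cell cannot be told apart.

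Superoxide dismutases turn superoxide, a by-product of respiration and of oxidases, into hydrogen peroxide. Catalase, in peroxisomes, splits hydrogen peroxide without a reducing partner. Glutathione peroxidases draw on glutathione and most peroxiredoxins on thioredoxin, both kept reduced with NADPH. The heart respires heavily and is rich in mitochondria, where Sod2 and Prdx3 act.

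Catalase had the widest range of levels over the hearts, except with local background subtracted, where the genotype values of Prdx3 were larger (-1.75 against 1.05 for Cat in CR hearts). Its probe was lowest in the control AL heart, 1.43-fold higher in the control CR heart and 1.77-fold higher in the knockout AL heart, and it differed by 1.02-fold between the knockout AL and CR hearts. Prdx3 was 1.29-fold higher and Sod1 1.28-fold lower in the CR than in the AL control heart, and both had the same sign at a smaller size in the knockout hearts. For Prdx3 the sign was the other one there when local background was subtracted, and in the authors' deposited table its knockout value (0.25) was not smaller than its control value (0.20). Prdx5 kept within 0.05 log2 units over all 4 hearts, although its knockout over control value in AL hearts was -0.45 when the channels were scaled to a common median. Sod2 was highest in the knockout AL heart, as was Prdx6 except with that scaling or with local background subtracted, and Gpx3 was highest in the control AL heart.

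For the 3 genes at the ends of the control response, Cat and Prdx3 at the high end and Sod1 at the low end, the 250 bases before the RefSeq start of the gene are given from the promoter table of GRCm38.p6, 5′ to 3′ on the strand of the gene. Cat lies on the minus strand (chr2:103485154-103485403), Prdx3 on the minus strand (chr19:60874539-60874788) and Sod1 on the plus strand (chr16:90220512-90220761). Capitals mark matches, on either strand, to TGACNNNGC (the core of the antioxidant response element that Nfe2l2 binds), GTAAACA (a core of sites for FOXO factors), GGGCGG (the GC box) and CCAAT (the CCAAT box), and neighbouring matches may overlap.
Cat: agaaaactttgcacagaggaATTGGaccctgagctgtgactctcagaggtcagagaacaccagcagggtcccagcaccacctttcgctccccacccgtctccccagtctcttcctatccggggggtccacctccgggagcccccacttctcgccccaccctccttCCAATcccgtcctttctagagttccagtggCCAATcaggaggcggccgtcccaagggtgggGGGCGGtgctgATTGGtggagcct
Prdx3: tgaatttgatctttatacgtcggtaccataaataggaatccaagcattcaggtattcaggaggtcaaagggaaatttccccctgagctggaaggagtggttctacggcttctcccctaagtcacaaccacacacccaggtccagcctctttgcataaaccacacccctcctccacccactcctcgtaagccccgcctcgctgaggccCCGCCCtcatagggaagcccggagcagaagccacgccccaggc
Sod1: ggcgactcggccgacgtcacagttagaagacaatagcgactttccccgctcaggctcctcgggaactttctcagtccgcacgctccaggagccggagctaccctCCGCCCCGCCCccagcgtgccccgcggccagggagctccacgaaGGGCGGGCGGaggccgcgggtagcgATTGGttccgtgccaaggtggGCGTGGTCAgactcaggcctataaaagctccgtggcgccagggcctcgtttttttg

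The Cat window held 4 CCAAT boxes and 1 GC box, the Prdx3 window 1 GC box, and the Sod1 window 4 GC boxes, 1 CCAAT box and 1 antioxidant response element core. Of the 8 measured genes, 7 had a window in the table, and Prdx6 is named only. A GC box was found in 6 of the 7, against 32.7% of 32851 windows of the same length. A CCAAT box was found in 4 of the 7, against 33.8% of windows. The antioxidant response element core was found in 1 of the 7, Sod1, against 10.2% of windows, and the FOXO core in 0 of the 7, against 3.17%. The 32851 windows are those of 27025 genes, whether or not measured or detected here, so these shares are not matched to the 7 genes. The matches are of letters and say nothing of binding.

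Sod2, the manganese superoxide dismutase of the mitochondrial matrix, gave a signal above the blank spots of 9427 scanner units in the control AL heart, 10986 in the control CR heart, 11101 in the knockout AL heart and 10634 in the knockout CR heart. On the normalized log2 scale its level was 13.17, 13.23, 13.72 and 13.43 in the same order. The knockout AL heart was thus the highest and both control hearts were the lowest.

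Sod1, the copper and zinc superoxide dismutase of the cytosol, gave 164.3, 145.9, 118.3 and 106.0 units above blank in control AL and CR and then knockout AL and CR hearts. Its log2 level was 7.86, 7.50, 7.51 and 7.34. The control AL heart was the highest and the knockout CR heart the lowest.

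Cat, catalase itself, gave 297.9 units above blank in the control AL heart, 545.7 in the control CR heart, 540.3 in the knockout AL heart and 584.3 in the knockout CR heart. The log2 levels were 8.53, 9.05, 9.36 and 9.33, a range of 0.83 that was the widest of the 7 genes. The control AL heart stood below the others, and the knockout hearts lay close together at the top.

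Gpx3, the secreted glutathione peroxidase, gave 711.7, 713.8, 477.3 and 612.6 units above blank in control AL and CR and then knockout AL and CR hearts. The log2 levels were 9.63, 9.39, 9.19 and 9.39. The near-equal signals of the control pair became a difference after normalization because Cy3 signals ran higher than Cy5 signals across the array. The offset removed in the authors' deposited table is 0.359 log2 units for the control pair and 0.144 for the knockout pair. The knockout AL heart was the lowest, and the CR hearts differed by 0.01, or by -0.54, knockout over control, with local background subtracted.

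Gpx1, the main glutathione peroxidase of the cytosol and mitochondria, was at the floor of this array. Its signal minus the blank mean was -2.0 in the control AL heart, 7.0 in the control CR heart, -3.2 in the knockout AL heart and -2.8 in the knockout CR heart. Only the control CR heart passed the detection limit, with a log2 level of 5.95 against a lowest detected level of 5.84 in the control AL channel. Taken at these levels, it was at least 1.08-fold higher in the control CR than in the control AL heart. This bound rests on 1 probe near the floor and is open to spot noise as well as dye bias. For the knockout hearts, both not well above background, no fold is given.

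Prdx3, the thioredoxin-dependent peroxiredoxin of mitochondria, gave 3550 units above blank in the control AL heart, 5236 in the control CR heart, 3803 in the knockout AL heart and 4994 in the knockout CR heart. The log2 levels were 11.78, 12.14, 12.19 and 12.38, a range of 0.60. The CR heart was the higher of the pair in both genotypes, and the control AL heart was the lowest of all.

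Prdx5, a peroxiredoxin of mitochondria, peroxisomes and cytosol, gave 5930, 6599, 4244 and 4912 units above blank in control AL and CR and then knockout AL and CR hearts. Its log2 levels, 12.44, 12.41, 12.38 and 12.39, were the most even of the 7 genes. The lower signals on the knockout array before normalization were not seen in the normalized levels.

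Prdx6, a peroxiredoxin with a single active cysteine that draws on glutathione, gave 2969, 3620, 2936 and 2827 units above blank in the same order of hearts. The log2 levels were 11.49, 11.57, 11.80 and 11.56. The knockout AL heart was the highest and the other 3 lay within 0.1 of each other.

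**Figure D1:**
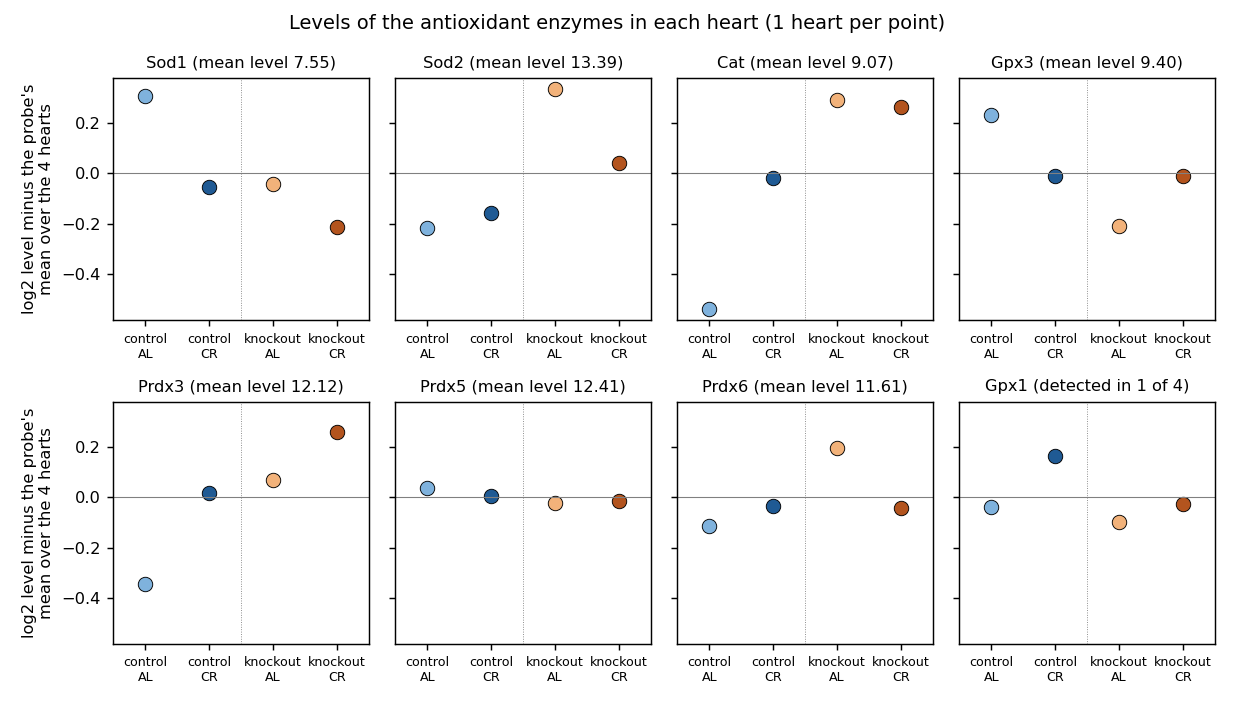
Each panel shows 1 gene, with the 4 hearts on the horizontal axis (AL and CR of control and knockout mice) and the log2 level minus the mean over the 4 hearts of that probe on the vertical axis; each point is 1 heart, with no error bar because there are no replicates. The control AL heart is the lowest for Cat (8.53) and Prdx3 (11.78) and the highest for Sod1 (7.86) and Gpx3 (9.63), and Prdx5 is nearly flat.

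In control hearts, restriction was compared with free feeding first. The log2 CR over AL value of Cat was 0.51, and 1.4% of the 12658 genes detected in both hearts had a higher one. For Prdx3 it was 0.36, with 3.8% of genes higher, and for Sod1 -0.35, with 2.3% of genes lower. Cat acts in the peroxisome, Prdx3 in the mitochondrion and Sod1 in the cytosol, but Prdx5, which is found in all of these, did not share their values. Gpx3 was at -0.25, and Prdx6 (0.08), Sod2 (0.06) and Prdx5 (-0.02) were all near 0. No gene of the list reached 1.5-fold, against 0.814% of all genes higher and 0.34% lower. At a lower threshold, 0.322 log2 units, 2 were higher, Cat and Prdx3, against 5.11% of all genes, and 1 was lower, Sod1, against 3.01%. The median of the 7 genes was 0.06, and that of all genes 0.

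These values depend on what is counted as background. The brightness around a spot, its local background, was large relative to the spot itself: for Cat it was 79.8% and 85.7% of the spot signal in the control AL and CR hearts. It was higher around bright spots, at 24.6 units for Gpx1 and 4084.2 for Sod2 in the control AL heart. Blank spots averaged 32.5 units there. Whether it held signal of the spot itself was not tested. With this local background subtracted, the value of Cat was 0.17, and over all the processing settings tried it lay between 0.17 and 0.63. Prdx3 lay between 0.20 and 0.53 and Sod1 between -0.53 and -0.26. With median centring Cat passed 1.5-fold (0.63). Sod2 and Prdx6 took the other sign in the authors' deposited table, with -0.14 and -0.07, and Sod2 also with local background subtracted (-0.10).

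In Sirt1 knockout hearts, the same comparison gave smaller values for the genes that led in the controls. Cat had a log2 CR over AL value of -0.03, and 58.4% of the 12142 genes detected in both hearts had a higher one. Prdx3 was at 0.19, Sod1 at -0.17 and Prdx5 at 0.01. Gpx3 had the highest value, 0.20, and Sod2 the lowest, -0.28, with Prdx6 at -0.24. No gene of the list reached 1.5-fold, against 0.758% of all genes higher and 0.758% lower. None reached 0.322 log2 units either, against 4.16% of all genes higher and 4.1% lower. The median of the 7 was -0.03, and that of all genes 0.

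With local background subtracted, the knockout values of Gpx3 (-0.35), Prdx3 (-0.09) and Prdx6 (0.49) took the other sign. Local background came to 72.9% of the spot signal for Gpx3, 90.3% for Prdx3 and 61.2% for Prdx6 in the knockout CR heart. Cat lay between -0.21 and 0.02 over the settings, and Sod1 between -0.30 and -0.09.

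**Figure D2:**
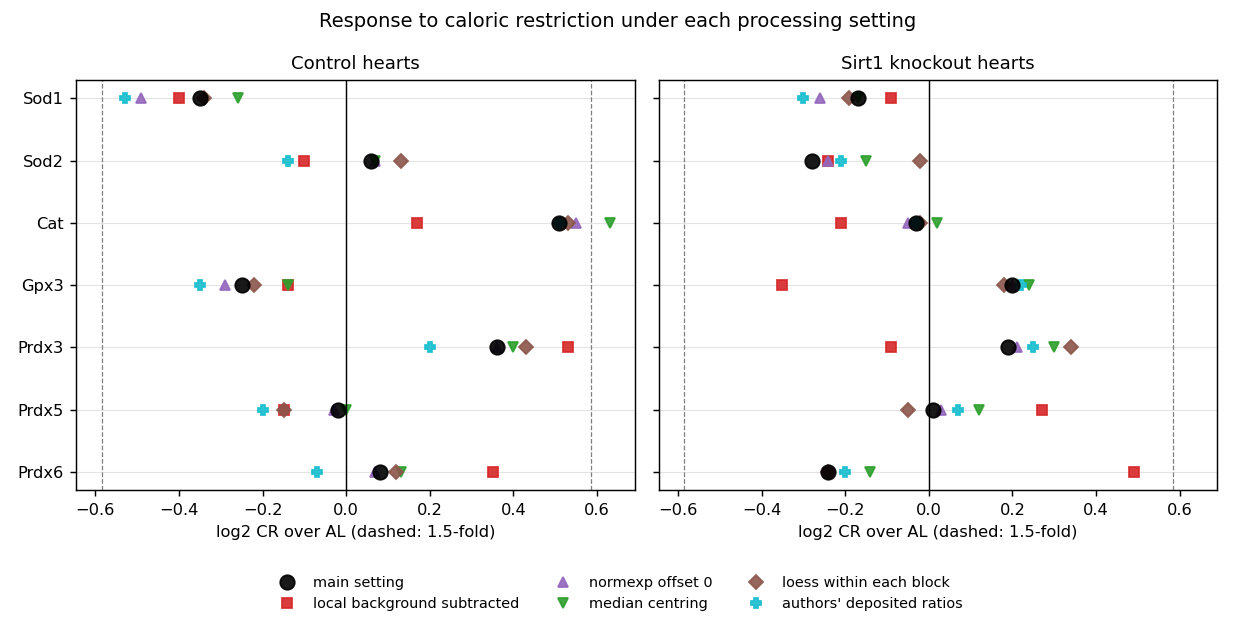
The horizontal axis is the log2 CR over AL value, in control hearts on the left and in Sirt1 knockout hearts on the right, with 1 line per gene; the large point is the value reported in the text and the smaller marks are the same value under the other processing settings. Cat stays above 0 in the control hearts (0.17 to 0.63) and near or below 0 in the knockout hearts (-0.21 to 0.02), and the marks of Gpx3, Prdx3 and Prdx6 lie on both sides of 0 in the knockout hearts.

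Next, the control response was subtracted from the knockout response gene by gene. For Cat this difference was -0.54, so its CR over AL ratio was 1.45-fold lower in the knockout pair, and 0.7% of the 11698 genes detected in all hearts had a lower value. For Sod2 it was -0.34, and between -0.31 and -0.07 under the other settings. For Prdx6 it was -0.32, and it took the other sign (0.14) with local background subtracted. Gpx3 had the largest positive value, 0.44, with 0.8% of genes higher, and it took the other sign (-0.21) with local background subtracted. Sod1 was at 0.18 and Prdx5 at 0.03. Prdx3 was at -0.17, but past 1.5-fold at -0.62 with local background subtracted and at 0.05 in the authors' deposited table. The difference itself could not be tested. No gene of the list reached 1.5-fold, against 0.376% of all genes higher and 0.513% lower. At 0.322 log2 units 1 was higher, Gpx3, against 2.13% of all genes, and 2 were lower, Cat and Sod2, against 3.79%, with Prdx6 just short of the threshold. Sod2 passed it in none of the other settings. The median of the 7 was -0.17, and that of all genes 0. For Cat the value lay between -0.61 and -0.38 over the settings tried, and it passed 1.5-fold with normexp offset 0 (-0.60) and with median centring (-0.61).

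**Figure D3:**
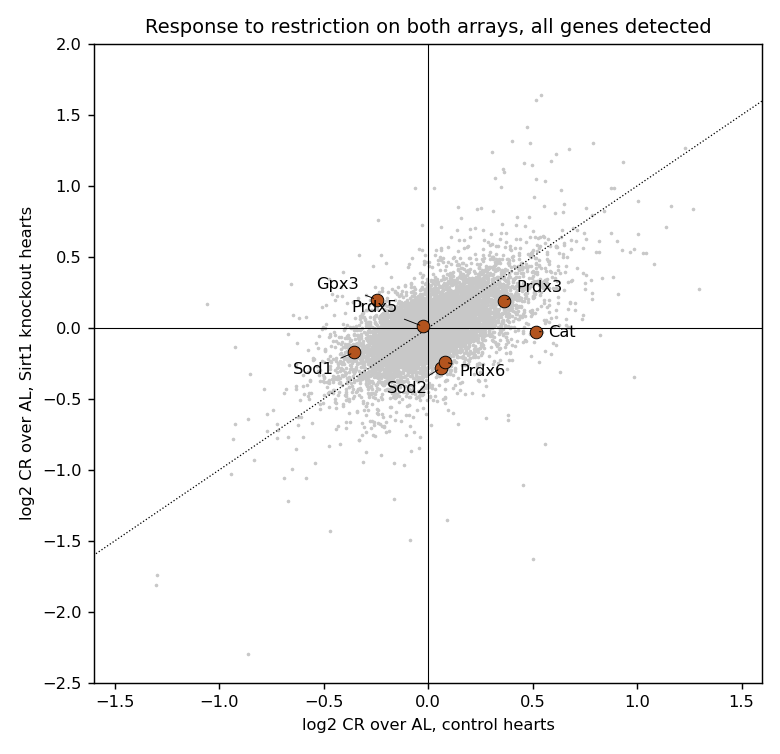
Each point is a gene detected in all 4 hearts, with its log2 CR over AL value in the control hearts on the horizontal axis and in the Sirt1 knockout hearts on the vertical axis; the named points are the 7 enzymes. Cat lies to the right at 0.51 and near the horizontal line at -0.03, Prdx3 (0.36, 0.19) and Sod1 (-0.35, -0.17) have the same sign on both axes, and Gpx3 (-0.25, 0.20) does not.

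Knockout and control hearts were then compared within each diet, which sets 1 array against the other. The AL comparison shares the control AL heart with the control response above, so the values of Cat in both are not separate evidence. In AL hearts, Cat was 1.77-fold higher in the knockout, a log2 difference of 0.83, and 0.9% of 12783 genes had a higher one. Sod2 was higher by 0.55, and Prdx3 was at 0.41 but at -1.13 with local background subtracted. Prdx6 was at 0.31 (-0.57 with local background subtracted) and Prdx5 at -0.05 (0.20). Gpx3 (-0.44) and Sod1 (-0.35) were lower in the knockout. Cat and Gpx3, at the high and the low end, both remove hydrogen peroxide. At 1.5-fold 1 gene was higher, Cat, against 2.57% of all genes, and 0 were lower, against 1.78%. At 0.322 log2 units 3 were higher, Cat, Sod2 and Prdx3, against 8.39% of all genes, and 2 were lower, Gpx3 and Sod1, against 6.9%. The median of the 7 was 0.31, and that of all genes 0.01.

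In CR hearts, knockout and control were closer for each of the 7 genes, though not for Prdx3, Prdx5 and Gpx3 with local background subtracted (-1.75, 0.62 and -0.54), nor for Prdx6 with the channels scaled to a common median (-0.32). Cat had the highest value, but Sod2 was higher with loess by block (0.30 against 0.28), and Prdx3 (0.27) and Sod2 (0.26) were higher with median centring (Cat 0.25). Cat was at 0.29, Prdx3 at 0.24 and Sod2 at 0.20, and Sod1 was at -0.17. Prdx3 and Sod2 took the other sign with the channels scaled to a common median (-0.05 and -0.06). Gpx3 (0.01), Prdx6 (-0.01) and Prdx5 (-0.02) were near 0, but with that scaling they were at -0.12, -0.32 and -0.41, and Prdx6 was at -0.43 with local background subtracted. No gene of the list reached 1.5-fold, against 1.43% of all genes higher and 1.08% lower. None reached 0.322 log2 units, against 6.14% of all genes higher and 6.16% lower. The median of the 7 was 0.01, and that of all genes 0.

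Prdx3 was the gene whose genotype values turned most on the processing. Its local background was 59.2% and 56.9% of the spot signal for the control pair but 88.0% and 90.3% for the knockout pair. With it subtracted, the knockout over control value was -1.13 in AL and -1.75 in CR hearts. For Cat, where local background was the larger share on the control array (79.8% and 85.7% against 58.1% and 66.2%), the values with subtraction were 1.43 and 1.05. Sod2 and Sod1 kept their signs with subtraction, at 0.33 and -0.57 in AL hearts and 0.19 and -0.26 in CR hearts. With the channels scaled to a common median, Prdx6 was at -0.01 and Prdx3 at 0.12 in AL hearts.

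**Figure D4:**
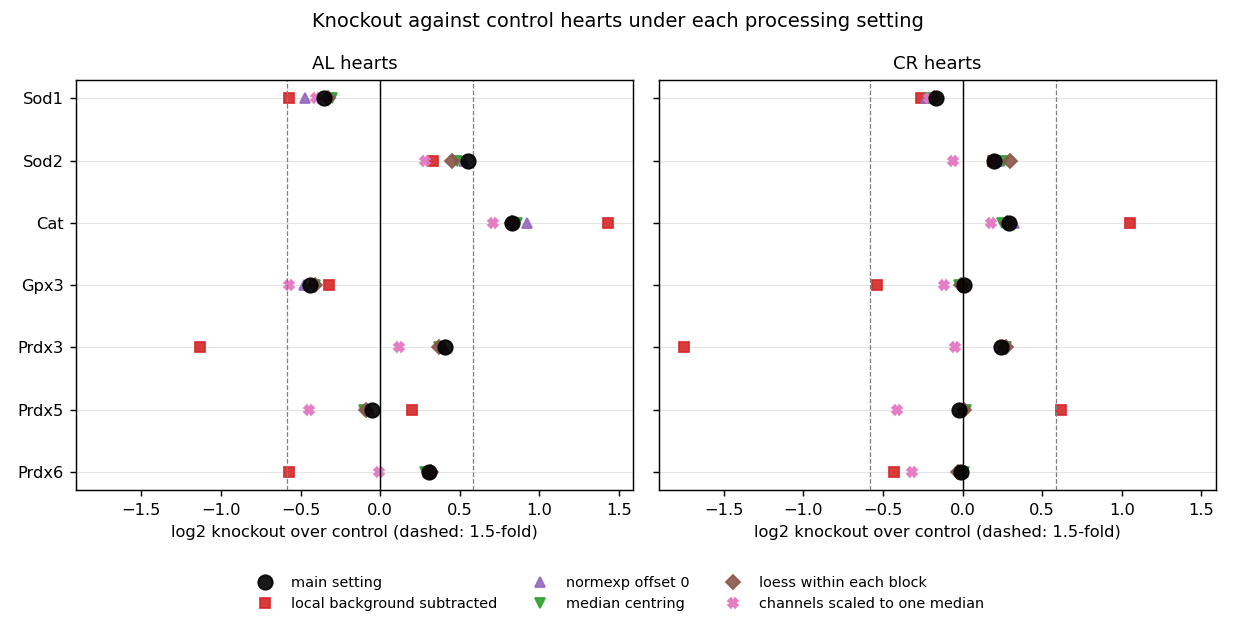
The horizontal axis is the log2 knockout over control value, in AL hearts on the left and in CR hearts on the right, with 1 line per gene; the large point is the value reported in the text and the smaller marks are the other processing settings. Cat is above 0 at every mark (0.71 to 1.43 in AL hearts, 0.18 to 1.05 in CR hearts), Sod1 is below 0 at every mark, and the marks of Prdx3 reach from 0.41 down to -1.13 in AL hearts.

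Markers of the heart's cell types differed between the hearts along with these values. In knockout against control AL hearts, all 10 macrophage markers were higher (median 0.31), 7 of 9 fibroblast markers (0.49), 6 of 9 cardiomyocyte markers (0.28), 7 of 8 smooth muscle and pericyte markers (0.13) and 3 of 9 endothelial markers (-0.02), against 52.6% of all genes. With local background subtracted these medians were 0.27 for macrophage, 0.11 for fibroblast, 0.47 for cardiomyocyte, 0.08 for smooth muscle and pericyte and -0.13 for endothelial markers. The summed linear level of the macrophage markers was 1837 and 1504 in the control AL and CR hearts and 2846 and 1797 in the knockout AL and CR hearts. For the fibroblast markers these sums were 4644, 3532, 4815 and 3769, and for the cardiomyocyte markers 183607, 172609, 205641 and 177504. The atrial myosin light chain Myl7 differed by -3.95 in AL and -4.06 in CR hearts, knockout over control, and the atrial light chain Myl4 by -2.47 and -2.71. The atrial markers Nppa, Bmp10 and Dkk3 did not share this: the natriuretic peptide gene Nppa was at 0.99 and 1.95, and Bmp10 and Dkk3 lay between -0.24 and 0. Sln, at -0.09 and -0.20, gave only 5.2 to 16.4 units above blank. It was not detected in the knockout CR heart, so it could not show a drop of that size. None of the markers of these lists was at background in all hearts. Several were close to it: Cdh5, Vwf, Cnn1, Myh11 and Fcgr1 gave only 4.4 to 18.5 units above blank, so their signs carry little weight in the counts. Under restriction, 51.4% of all genes were higher in control hearts and 50.1% in knockout hearts. Endothelial markers were lower in 4 of 9 cases in control hearts and 7 of 9 in knockout hearts. The endothelial medians were 0.05 and -0.19, or -0.11 and 0 after subtraction of local background. Smooth muscle and pericyte markers were lower in 1 of 8 and 5 of 8 cases. Cardiomyocyte markers were lower in 4 of 9 cases in each genotype. Macrophage markers were lower in 7 of 10 and 8 of 9 cases, and fibroblast markers in 6 of 9 and 8 of 9. Their medians were -0.15 and -0.34 for macrophage and -0.21 and -0.32 for fibroblast markers, and with local background subtracted -0.02 and -0.15, and -0.08 and -0.09. The part of these shifts in the values of the enzymes was not tested.

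Genes whose levels ran most like those of Cat and Prdx3, the genes with the widest ranges, were sought among 8021 genes by the Euclidean distance of log2 levels, each centred on its mean over the 4 hearts. Nearest to Cat were Hspb7, a small heat shock protein of heart muscle (distance 0.073), the transcription factor Nfix (0.098) and the peptide transporter Tap2 (0.102). Hspb7 read 9.62, 10.19, 10.48 and 10.52 in control AL and CR and then knockout AL and CR hearts. Nearest to Prdx3 were the RNA helicase Ddx46 (0.020), Myzap, a protein of the intercalated disc (0.042), and the chromatin remodeller Smarca4 (0.046). Over only 4 hearts many genes share a profile, and nothing follows from it about function.

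The enzymes' relatives and suppliers were described through 7 lists. For comparison with their counts, 51.4% of all detected genes were higher under restriction in control hearts and 50.1% in knockout hearts, and in knockout over control 52.6% were higher in AL and 51.0% in CR hearts. In the difference of responses 49.0% were higher. All 9 other members of the enzyme families with a probe were detected. Gpx2, Gpx5 and Gpx6 gave only 5.6 to 12.2 units above blank, near the 7.0 of Gpx1 in the control CR heart. Each of them counts among the lower genes in control hearts below, with values close to the floor. In control hearts 3 were higher and 6 lower under restriction (median -0.03), from Gpx8 (0.23), a peroxidase of the endoplasmic reticulum, to the cytosolic Prdx1 (-0.14). In knockout hearts 4 were higher and 5 lower (median -0.01), from Prdx4 (0.28), the secretory peroxiredoxin, to Prdx1 (-0.52). In knockout over control, 5 of the 9 were higher in AL hearts and 6 in CR hearts (medians 0 and 0.05). Gpx8 was the highest in both diets (0.32 in AL, 0.20 in CR) and Prdx4 the lowest (-0.58 and -0.33), and Prdx1 was at 0.31 and -0.07. None reached 1.5-fold in any comparison in this setting. With local background subtracted, the genotype values were 1.70 and 1.73 for Prdx1, 1.18 and 0.93 for Prdx2, -1.01 and -0.80 for Prdx4 and 0.12 and -0.68 for Gpx8, so Prdx1 was then above Gpx8 and several passed 1.5-fold.

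The thioredoxin system returns peroxiredoxins to their reduced form. Its list held the widest values of the 7 lists, those of Txnip and Sesn1, but not with local background subtracted. Glrx3 of the glutathione list was then at -4.09 in CR hearts, knockout over control. Of the 9 detected genes of the thioredoxin list, 6 were higher and 3 lower under restriction in control hearts (median 0.14). In knockout hearts 4 were higher and 5 lower (median -0.03, and 0.25 with local background subtracted). Sesn1, a sestrin linked to peroxide defence and to growth control, read 8.70, 9.29, 9.12 and 10.29 in control AL and CR and then knockout AL and CR hearts. Its log2 CR over AL value was 0.59 in control and 1.17 in knockout hearts, and with local background subtracted the control value took the other sign (-0.07). In CR hearts it was higher by 1 log2 unit in the knockout, and its difference of responses was 0.59. Txnip, which binds and inhibits thioredoxin, read 9.65, 10.03, 11.59 and 11.76 in the same order. Both knockout hearts were above both control hearts, with knockout over control values of 1.93 in AL and 1.72 in CR hearts. With local background subtracted these values were 0.23 and 1.26. The knockout AL heart was then not above the control CR heart, whose CR over AL value was 0.31. Srxn1, the sulfiredoxin that repairs over-oxidised peroxiredoxins, was at 0.14 in control and -0.46 in knockout hearts under restriction, and its difference of responses was -0.60. In knockout over control 6 of the 9 were higher in AL hearts (median 0.12) and 5 in CR hearts (0.04, and 0.36 with local background subtracted), with Txn2, mitochondrial thioredoxin, the lowest in AL at -0.17 (0.78 with local background subtracted) and Txnrd1, cytosolic thioredoxin reductase, the lowest in CR at -0.50. In the difference of responses 2 of the 9 were higher and 7 lower (median -0.08).

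Glutathione partners with a detected probe numbered 9. Of these, 7 were higher and 2 lower under restriction in control hearts (median 0.14, and -0.01 with local background subtracted) and 4 higher and 5 lower in knockout hearts (-0.01). Gclm, the regulatory subunit of the enzyme that limits glutathione synthesis, was at 0.67 in control hearts and 0.32 in knockout hearts. Glrx5, a mitochondrial glutaredoxin, was the lowest in both, at -0.33 and -0.42. Glrx3, a cytosolic glutaredoxin, was the highest in knockout hearts at 0.41, and took the other sign there with local background subtracted (-1.28). In knockout over control 4 of the 9 were higher in AL hearts (median -0.03, and 0.25 with local background subtracted) and 3 in CR hearts (-0.12, and 0.05). Glrx3 was the lowest in both, at -0.40 and -0.37, and at -3.03 and -4.09 with local background subtracted, and Gclc, the catalytic partner of Gclm, the highest at 0.16 and 0.14. In the difference of responses 3 were higher and 6 lower (median -0.10), from Glrx2 (0.21), a mitochondrial glutaredoxin, to Gclm (-0.35).

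Enzymes that supply NADPH were higher under restriction in 6 of 7 cases in control hearts (median 0.24) and in 4 of 7 in knockout hearts (0.05). Nnt, the transhydrogenase of the inner mitochondrial membrane, led in control hearts at 0.57, and it was at 0.47 in knockout hearts. These are transcript values, and neither working enzyme nor NADPH was measured. Idh1, the cytosolic and peroxisomal isocitrate dehydrogenase, read 7.50, 8.04, 8.20 and 8.16 in control AL and CR and then knockout AL and CR hearts. As for Cat, its lowest level was in the control AL heart. Its CR over AL value was 0.55 in control and -0.03 in knockout hearts, and it was higher by 0.70 in the knockout AL heart. In knockout over control 5 of the 7 were higher in AL hearts (median 0.21, and -0.22 with local background subtracted) and 4 in CR hearts (0.12, and -0.34). Me3, a mitochondrial malic enzyme, was the highest under restriction in knockout hearts at 0.57 and the lowest in AL hearts, knockout over control, at -0.50. Me1, the cytosolic malic enzyme, was the lowest under restriction on both arrays, at -0.06 and -0.25. In the difference of responses 1 of the 7 was higher and 6 were lower (median -0.17), with Me3 at 0.20 and Idh1 at -0.58.

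Of 6 detected genes for selenoprotein synthesis, which glutathione peroxidases with selenium depend on, 5 were higher under restriction in control hearts (median 0.06) and 2 in knockout hearts (-0.06). Pstk, the kinase that prepares the tRNA for selenocysteine, was at 0.56 and 0.60, and at 0.29 and 0.33 with local background subtracted. In knockout over control it was at -0.68 in AL and -0.64 in CR hearts, and neither passed 1.5-fold with local background subtracted (-0.22 and -0.18). Sephs2, a selenophosphate synthetase, was the highest in knockout over control, at 0.22 and 0.09.

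Regulators of antioxidant genes were higher under restriction in 9 of 11 cases in control hearts (median 0.09) and 9 of 10 in knockout hearts (0.10). Both counts include values near 0: Foxo3 (0 on both arrays) and Esrra (0.03 and 0.02). The same holds for Foxo4 (0.05) in control hearts, and for Keap1 (0.04) and Sirt3 (0.01) in knockout hearts. Foxo3 and Foxo4 gave only 2.2 to 8.6 units above blank. The coactivator Ppargc1a led the regulators on both arrays, at 0.49 and 0.51. With local background subtracted it was at 0.12 and 0.42, below Bach1 (0.25) in control and Sirt3 (0.49) in knockout hearts. Nfe2l2 itself was at 0.27 (-0.15 with local background subtracted) and 0.17, and in knockout over control at 0.44 in AL hearts, where Esrra, an orphan nuclear receptor, was at -0.44. In knockout over control 5 of 10 regulators were higher in AL hearts (median 0) and 4 in CR hearts (-0.03, and 0.27 with local background subtracted), where the coactivator Ppargc1b was the highest at 0.45 and Esrra the lowest at -0.45. Sources of superoxide and peroxide were lower in 7 of 9 cases in control hearts (median -0.04) and 6 of 7 in knockout hearts (-0.10, and 0.01 with local background subtracted). Among the lower ones in control hearts, Cybb (-0.03), Dao (-0.04) and Duox1 (-0.01) were near 0, at only 6.0 to 10.5 units above blank. Xdh, xanthine dehydrogenase, was the highest at 0.26 and 0.69, and Cyba, a subunit of NADPH oxidases, the lowest at -0.39 and -0.66. In CR hearts, knockout over control, Xdh was at 0.88 and Cyba at -0.66, the latter with the other sign (0.15) when local background was subtracted. In the difference of responses 2 of 7 sources were higher and 5 lower (median -0.18), from Xdh (0.43) to Cybb (-0.29), the oxidase subunit of phagocytes.

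The list medians for CR over AL in control hearts changed with the background as well. With local background subtracted they were 0.03 for the other family members, 0.05 for the thioredoxin list, 0.34 for the NADPH list, 0.02 for the selenoprotein list, 0.02 for the regulators and -0.05 for the oxidant sources, and -0.01 over all genes.

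**Figure D5:**
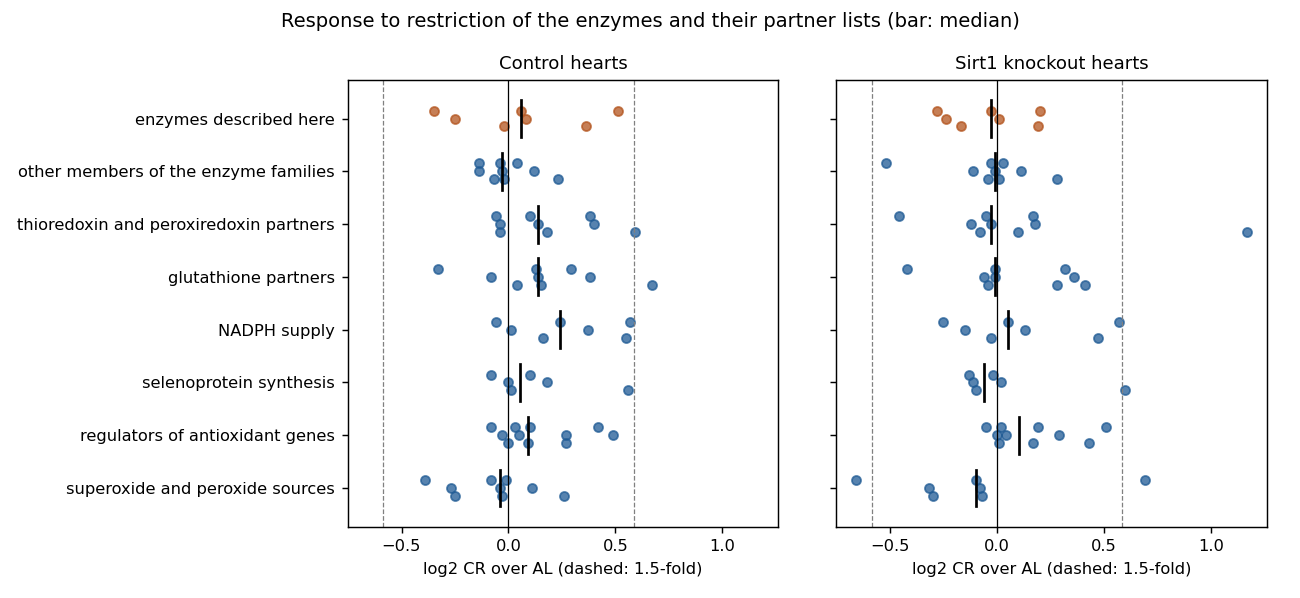
Each row is a list and each point a gene detected in both hearts of that array, with the log2 CR over AL value on the horizontal axis, control hearts on the left and Sirt1 knockout hearts on the right; the bar is the median of the row and the dashed lines mark 1.5-fold. In control hearts the NADPH list has the highest median (0.24), and the point farthest to the right in knockout hearts is Sesn1 (1.17).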

How the data were processed

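RNA of 4 whole mouse hearts was hybridised in pairs to 2 two-colour arrays. The deposited scanner files give, per the file headers, spot intensity and local background at 635 nm (Cy5, AL) and 532 nm (Cy3, CR). Normalized log2 values, CR divided by AL, fill the authors' deposited table, per the labels. Of its values, 17404 of 17405 (control) and 16554 of 16555 (knockout) lay within 0.001 of log2 of the blank-subtracted 532 nm over 635 nm signal minus a constant (0.359 and 0.144). Its column medians were -2.885e-06 and 8.079e-05, so scale, centring and direction are known. For scanner software and genome build: not given in the sources used here.

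Spot intensity without local background was corrected with normexp (offset 50) and normalized by loess within arrays in limma 3.58.1 (R 4.3.3), with control and marked spots at weight 0. The ratios within an array were tested on simulated data. Levels and genotype values were taken after Aquantile normalization, which was not simulated. Spots were detected above the mean of 2736 blank spots (5% left out at each end) plus 2 SD. The number of arrays limits the precision, and no test was run.

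Of 23473 probes, 16631 carried 1 symbol and 6842 none. Of the symbols, 12622 were current in the gene table of GRCm38.p6, 3947 were updated and 62 did not match. The brightest probe stood for a gene. Named are all 10 listed genes and, for the 2 widest-ranging genes, the 3 nearest profiles. Partner genes were named chiefly where they were past 1.5-fold or at a list's ends, but not every list end is named. Only genes whose mean signal reached the median of all were searched for profiles. The listed genes, partner lists and marker lists were chosen with earlier results of these data known. Alternatives were local background subtraction, offset 0, median centring, loess by block, the deposited ratios, scaling to a common median, no detection filter and a lower fold (0.322 log2 units).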

Additional observations from a re-analysis of the deposited data

Results flagged for a closer look

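Of the 7 enzymes detected in every heart, 5 had CR over AL values of opposite sign in the control and the knockout pair, against 32.9% of the 11698 genes detected in all hearts. Under the other settings 3 to 5 of the 7 did, 3 of them with local background subtracted, against 44.4% of all genes. With 1 pair per genotype these differences were not tested. Cat went from 0.51 in control hearts to -0.03 in knockout hearts, a difference of -0.54, and with median centring both values were positive (0.63 and 0.02). Gpx3 went from -0.25 to 0.20, a difference of 0.44, and with local background subtracted both values were negative (-0.14 and -0.35). Sod2 went from 0.06 to -0.28, a difference of -0.34, and with local background subtracted both values were negative (-0.1 and -0.24). Prdx6 went from 0.08 to -0.24, a difference of -0.32, and with local background subtracted both values were positive (0.35 and 0.49). Prdx5 went from -0.02 to 0.01, a difference of 0.03, so both its values are near 0.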

How the results depend on the processing

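Subtracting the local background moved 31 of 35 gene values by more than 0.088 log2 units, the largest SD of positive control spots, and 12 took the other sign, 2 of them among the 11 values past 0.322 log2 units (Prdx3 in AL hearts, knockout over control, and the difference of responses of Gpx3). Sign changes numbered 0 of 35 with normexp offset 0, 4 of 35 with median centring, 3 of 35 with loess by block, 3 of 21 in the authors' deposited table and 4 of 14 with scaling to a common median.

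The median of the 7 genes for CR over AL in control hearts, 0.06, was -0.1 with local background subtracted and -0.14 in the authors' deposited table. The count past 1.5-fold there, 0, was 1 with median centring and 3 at 0.322 log2 units. For knockout over control in AL hearts the median, 0.31, was -0.32 with local background subtracted, -0.01 with scaling to a common median and 0.13 without the detection filter, and the count, 1, was 2 with local background subtracted and 5 at 0.322 log2 units. In CR hearts the median, 0.01, was -0.26 with local background subtracted and -0.12 with scaling to a common median, and the count, 0, was 3 with local background subtracted. For the difference of responses the count, 0, was 1 with local background subtracted, with offset 0 and with median centring, and 3 at 0.322 log2 units, and the median, -0.17, was 0.05 in the authors' deposited table. The cause was not tested.

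Averaging the probes of a gene was not run, since each of the 8 measured enzymes had 1 probe. No paired analysis was possible because each condition was measured in 1 heart. Gpx1, detected in 1 heart, is limited by its signal over background.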
